A study of Mus musculus with 9 samples.

Results

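Keratin-associated proteins are encoded by a large family of small genes whose mouse symbols begin with Krtap and a number. All rows of the deposited count table whose symbol has this form were taken, which gave 58 genes of 57180. Their counts were followed in all 9 libraries of skin RNA from BALB/c nude mice.

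Keratin-associated proteins form the matrix in which the hair keratin filaments of the cortex and cuticle are embedded, and disulphide bonds link the matrix to the filaments. They are grouped by composition into high-cysteine, ultrahigh-cysteine and glycine-tyrosine families, and the hair shaft makes them late, in the keratogenous zone of the growing follicle. Transcription factors of the hair matrix, among them Hoxc13 and Foxn1, are known regulators of hair keratin genes. Nude mice carry a mutated Foxn1, lack a functional thymus and form hair shafts that bend and break at the skin surface.

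The libraries formed 3 groups of 3, all from skin of BALB/c nude mice. The NoUVB skin was not irradiated. The UVB-Saline and UVB-hCOL3A1 groups received ultraviolet B on the back every second day over 8 weeks, at 60 mJ/cm2 (1 minimal erythemal dose) at first, 120 mJ/cm2 in the third week, 180 mJ/cm2 in the fourth and 240 mJ/cm2 (4 minimal erythemal doses) thereafter. The first of these irradiated groups is labelled with saline and the second with hCOL3A1, which the series title ties to type III collagen encoded as mRNA. Collection is given as day 28, with no statement of when that count began. Age, sex, the dose and carrier of hCOL3A1, and the animal behind each library are not stated. The p-values therefore compare groups with the variation among these samples alone, part of which may be technical. Saline is not named for NoUVB, so irradiation and saline cannot be told apart, and no group received the carrier alone. All 9 libraries carry the same batch label.

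Library totals ran from 7640172 to 12927411 estimated counts. The 18S ribosomal gene Rn18s-rs5 took 7.71% of them in NoUVB 2 and between 34.3% and 55.3% in the other 8. UVB-Saline 3 and UVB-hCOL3A1 3 stood apart from the other 7 libraries on the first principal component of all genes, at 55.0 and 39.8, with the others between -33.5 and 10.05. The medians over the tested Krtap genes and the counts by sign and by p are therefore given with and without these 2 libraries. The same holds for the log2 differences of most genes described singly. Counts of groups that do not overlap, and values by class in the comparisons, are given with all 9 libraries only.

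The stretches upstream of the gene starts show a feature that the choice of genes by name did not use. RefSeq promoters of build GRCm38.p6, 250 bases before to 50 after the annotated start, were at hand for 51 of the 58 genes. The motif TATAAA, the core of a TATA box, was found on either strand in 42 of these 51 promoters (82.4%), against 13.6% of all 32851 promoters in the same table. On the gene's own strand, with its first base 40 to 20 bases before the start, it stood in 31 of 51 (60.8%), against 2.0% of all. Among the 24 expressed genes with a promoter entry 14 had it at that place, and among the other 27 it was 17, so it was not confined to the expressed genes. Shown here are the 120 bases before the start for the most abundant gene of each composition class that had an entry, with TATAAA in capitals. All 3 lie on the minus strand and are written 5′ to 3′ along the gene, at chr11:99566631-99566750 for Krtap3-1, chr11:99780644-99780763 for Krtap4-8 and chr16:89487953-89488072 for Krtap8-1.
Krtap3-1: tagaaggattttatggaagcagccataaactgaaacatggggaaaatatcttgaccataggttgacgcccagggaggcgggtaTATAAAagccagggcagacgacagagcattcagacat
Krtap4-8: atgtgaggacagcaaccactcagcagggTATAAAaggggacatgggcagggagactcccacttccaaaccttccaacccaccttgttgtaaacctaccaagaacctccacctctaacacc
Krtap8-1: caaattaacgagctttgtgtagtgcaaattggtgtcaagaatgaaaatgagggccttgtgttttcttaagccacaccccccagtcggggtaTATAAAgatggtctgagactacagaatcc
The motif begins 37 bases before the annotated start in Krtap3-1, 29 in Krtap8-1 and 92 in Krtap4-8. Its place depends on where RefSeq sets the start.

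Short cores of factors known in the follicle were looked for in the same promoters, on both strands. TTTAT, a Hox core, was in 90.2% of the Krtap promoters and 40% of all, but it lies within TTTATA, the reverse complement of TATAAA, so the counts of these motifs overlap. CTTTG, the Lef1 core, was in 66.7% against 53.9%. ACGC, the Foxn1 core, was in 23.5% against 55.3%. Such matches describe letters in a window, not binding sites.

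A gene was called expressed at 1 CPM or more (counts scaled to a common library total, with edgeR's trimmed mean of M values, TMM) in at least 3 of the 9 libraries. By this measure 27 of the 58 Krtap genes were expressed. A further 20 had some counts, and 11 had 0 in every library, which allows up to 0.0323 CPM for each over the 9 libraries together (3 counts). Above 1 CPM in every library were 9 genes, namely Krtap11-1, Krtap13-1, Krtap15, Krtap2-4, Krtap3-1, Krtap3-2, Krtap3-3, Krtap7-1 and Krtap8-1. Within a single library 12 to 32 of the 58 reached 1 CPM, the fewest in UVB-Saline 3 and the most in UVB-Saline 1. The number expressed was 33 at 0.5 CPM and 14 at 5 CPM.

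The expressed genes lay on chromosomes 11 and 16. On chromosome 11, 17 of 23 Krtap genes were expressed, and on chromosome 16, 10 of 24 were. None of the 5 on chromosome 7, the 3 on chromosome 10 or the single gene on chromosome 1 was expressed, and 2 genes had no chromosome in the table used. All 8 members of family 4 and all 3 of family 3 were expressed, while 0 of 7 in family 19 and 0 of 5 in family 5 were. By class, 13 of 16 high-cysteine, 10 of 20 ultrahigh-cysteine and 4 of 16 glycine-tyrosine genes were expressed, and 0 of the 6 genes in families not assigned to a class.

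Summed over all 58 genes, Krtap RNA stood at 281, 293 and 193 CPM in NoUVB replicates 1 to 3. It stood at 242, 132 and 38.5 CPM in UVB-Saline, and at 109, 166 and 55.2 CPM in UVB-hCOL3A1. The 3 UVB-hCOL3A1 libraries were below all NoUVB libraries, while UVB-Saline overlapped NoUVB through its replicate 1. Means were 256 ± 54.6 CPM in NoUVB, 137 ± 102 in UVB-Saline and 110 ± 55.5 in UVB-hCOL3A1 (SD, n = 3 each). The irradiated groups were thus at 0.537 and 0.430 of the NoUVB mean, and at 0.7295 and 0.537 when UVB-Saline 3 and UVB-hCOL3A1 3 were left out. In tissue RNA, fewer hair-forming cells and less Krtap RNA per cell cannot be told apart. Krtap genes took between 0.00333% and 0.0430% of the counts of a library, and 15283 counts in all, so single genes rest on few counts. As CPM of the counts other than ribosomal RNA, without TMM, the sum was 463, 466 and 300.2 in NoUVB, 402, 226 and 60.2 in UVB-Saline and 193, 283 and 92.1 in UVB-hCOL3A1, with the libraries in the same order.

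**Figure D1:**
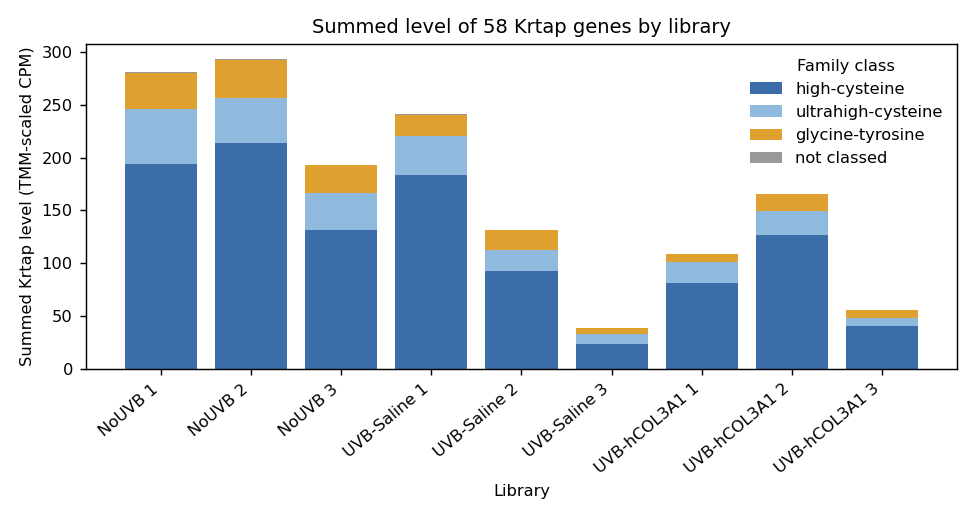
Summed level of the 58 Krtap genes in CPM (TMM-scaled; vertical axis from 0) in each of the 9 libraries, with bars divided by composition class. NoUVB bars reach 193 to 293 CPM, UVB-Saline 3 reaches 38.5 and UVB-hCOL3A1 3 reaches 55.2, and high-cysteine genes make up most of every bar.

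The high-cysteine genes carried most of this signal, between 61.7% and 76.2% of the summed Krtap CPM of a library. The 3 genes of family 3 alone held 32.9% of the sum over all libraries. Krtap3-1, encoding a small high-cysteine protein, was the most abundant Krtap gene per kilobase of transcript, with a mean of 48.1 CPM per kilobase over the 9 libraries. It stood at 49.9, 62.3 and 32.7 CPM in NoUVB, 34.8, 16.6 and 6.18 in UVB-Saline and 18.5, 30.3 and 10.04 in UVB-hCOL3A1. UVB-Saline 1 lay just above the lowest NoUVB library, and the UVB-hCOL3A1 libraries all lay below it. The log2 difference of UVB-Saline from NoUVB was -1.33 ± 0.62 (SE, edgeR quasi-likelihood adjusted p = 0.574) and that of UVB-hCOL3A1 was -1.30 ± 0.62 (adjusted p = 0.475).

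Krtap3-3 followed at 22.3 CPM per kilobase. Its levels were 23.3, 31.0 and 18.7 CPM in NoUVB, 25.9, 8.30 and 2.60 in UVB-Saline and 12.88, 20.04 and 5.40 in UVB-hCOL3A1. Both irradiated groups overlapped NoUVB, and its highest and lowest libraries differed 11.9-fold. Transcripts of family 3 share sequence, with 41.3% of the 50-base windows of Krtap3-3 also present in another gene, 28.9% of those of Krtap3-2 and 8.8% of those of Krtap3-1, so part of the division of reads between these genes is uncertain.

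Krtap11-1 and Krtap15, both single-member high-cysteine families on chromosome 16, had another pattern in the saline group. Krtap11-1 stood at 15.8, 21.7 and 15.9 CPM in NoUVB, 25.6, 16.6 and 2.38 in UVB-Saline and 8.39, 12.98 and 4.64 in UVB-hCOL3A1. Krtap15 stood at 18.5, 18.2 and 14.3 CPM in NoUVB, 25.7, 14.8 and 2.17 in UVB-Saline and 5.03, 11.4 and 2.81 in UVB-hCOL3A1. For both, the highest of the 9 libraries and the lowest belonged to UVB-Saline. The fitted differences of UVB-Saline from NoUVB were accordingly small beside their errors, -0.26 ± 0.68 for Krtap11-1 and -0.25 ± 0.75 for Krtap15 (edgeR adjusted p = 0.939 and 0.946). All 3 UVB-hCOL3A1 libraries lay below NoUVB for both genes, with log2 differences of -1.03 ± 0.70 and -1.40 ± 0.78 that did not pass the test (adjusted p = 0.622 and 0.539). Krtap1-3, at 1.29 CPM per kilobase, stood at 0.673 to 2.84 CPM in NoUVB, 0.217 to 1.85 in UVB-Saline and 0.432 to 1.03 in UVB-hCOL3A1, a 13.1-fold range in all.

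The ultrahigh-cysteine genes held 12.1% to 23.7% of the summed level. Family 4 was the main contributor, with 13.1% of the sum over all libraries. Krtap4-8, the most abundant of the class at 5.03 CPM per kilobase, stood at 10.5, 8.22 and 7.02 CPM in NoUVB, 5.34, 3.62 and 1.301 in UVB-Saline and 3.58, 4.23 and 0.648 in UVB-hCOL3A1. Every irradiated library was below every NoUVB library. The log2 differences from NoUVB were -1.31 ± 0.57 in UVB-Saline and -1.56 ± 0.57 in UVB-hCOL3A1 (edgeR adjusted p = 0.519 and 0.342). Krtap4-16 stood at 9.23, 5.36 and 4.52 CPM in NoUVB, at 5.85, 4.03 and 1.301 in UVB-Saline, where the groups overlap, and at 3.05, 3.10 and 0.971 in UVB-hCOL3A1, where they do not.

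Krtap4-1 varied little within unirradiated skin. It stood at 5.11, 5.63 and 5.39 CPM in NoUVB, 5.03, 2.80 and 0.976 in UVB-Saline and 2.21, 4.33 and 1.73 in UVB-hCOL3A1. All 6 irradiated libraries lay below the 3 NoUVB libraries, UVB-Saline 1 by a small margin. Krtap4-7 stood at 6.68, 3.75 and 3.75 CPM in NoUVB, 2.36, 1.32 and 0.650 in UVB-Saline and 1.91, 2.82 and 0.648 in UVB-hCOL3A1. Krtap4-6 stood at 2.699, 3.75 and 2.501 CPM in NoUVB, 2.16, 0.658 and 0.542 in UVB-Saline and 0.839, 2.07 and 0.540 in UVB-hCOL3A1. Neither gene's irradiated libraries reached the NoUVB range. Krtap9-1, of family 9, stood at 4.26, 2.59 and 2.98 CPM in NoUVB, 2.26, 1.97 and 0.976 in UVB-Saline and 1.52, 1.41 and 0.540 in UVB-hCOL3A1, again without overlap.

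Krtap4-13 had the widest fitted difference of the family, and its counts are the least certain. Of its 50-base windows 81.3% were shared with other genes, among them Gm11554, Gm11569 and 2300003K06Rik. Its estimated counts were 18.4, 18.7 and 15.3 in NoUVB, 19.3, 6.11 and 4.0 in UVB-Saline and 2.52, 0 and 2.0 in UVB-hCOL3A1. In UVB-hCOL3A1 2, where it was at 0, Gm11554 had 8.39 and Gm11569 10.6 estimated counts, and Gm11554 had 0 in all NoUVB libraries. Summed with these 3 genes the level was 4.40, 2.59 and 2.79 CPM in NoUVB, 2.87, 0.987 and 0.434 in UVB-Saline and 0.534, 1.79 and 0.216 in UVB-hCOL3A1. The sum in UVB-hCOL3A1 thus overlapped that in UVB-Saline, where Krtap4-13 alone had been below it in every library.

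The glycine-tyrosine genes held 7.42% to 14.6% of the summed level, and 4 of 16 were expressed. Krtap7-1, the most abundant of them at 17.8 CPM per kilobase, stood at 18.04, 22.3 and 16.1 CPM in NoUVB, 11.7, 11.3 and 2.71 in UVB-Saline and 3.51, 9.13 and 4.64 in UVB-hCOL3A1. Every irradiated library was below every NoUVB library, with log2 differences of -1.12 ± 0.50 in UVB-Saline and -1.72 ± 0.51 in UVB-hCOL3A1 (edgeR adjusted p = 0.537 and 0.266). Krtap8-1 stood at 3.83, 7.32 and 4.62 CPM in NoUVB, 2.26, 4.69 and 1.63 in UVB-Saline and 1.52, 2.54 and 1.51 in UVB-hCOL3A1. Its UVB-Saline replicate 2 lay inside the NoUVB range, and its UVB-hCOL3A1 libraries lay below it. Krtap6-2 stood at 6.39, 4.02 and 2.69 CPM in NoUVB, 2.05, 0.987 and 0.976 in UVB-Saline and 1.68, 2.73 and 0.864 in UVB-hCOL3A1. Its saline libraries did not reach NoUVB, and 1 UVB-hCOL3A1 library did.

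Several Krtap genes stayed at the edge of detection. Krtap1-5, Krtap10-4 and Krtap26-1 passed 1 CPM in 1 library each. Krtap1-5 did so in UVB-Saline 1 at 1.13 CPM, with 0.108 to 0.994 elsewhere, and Krtap10-4 in the same library at 1.54 CPM, with 0.216 to 0.839 elsewhere. Krtap26-1 did so in UVB-hCOL3A1 2 at 1.03 CPM, with 0 to 0.994 elsewhere. Of the unclassed families, Krtap28-10 reached 0.616 CPM at most, Krtap28-13 had counts in NoUVB 2 only (0.179 CPM) and Krtap29-1 in UVB-Saline 2 only (0.0822 CPM). In a library, 3 counts are worth 0.229 to 0.426 CPM.

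**Figure D2:**
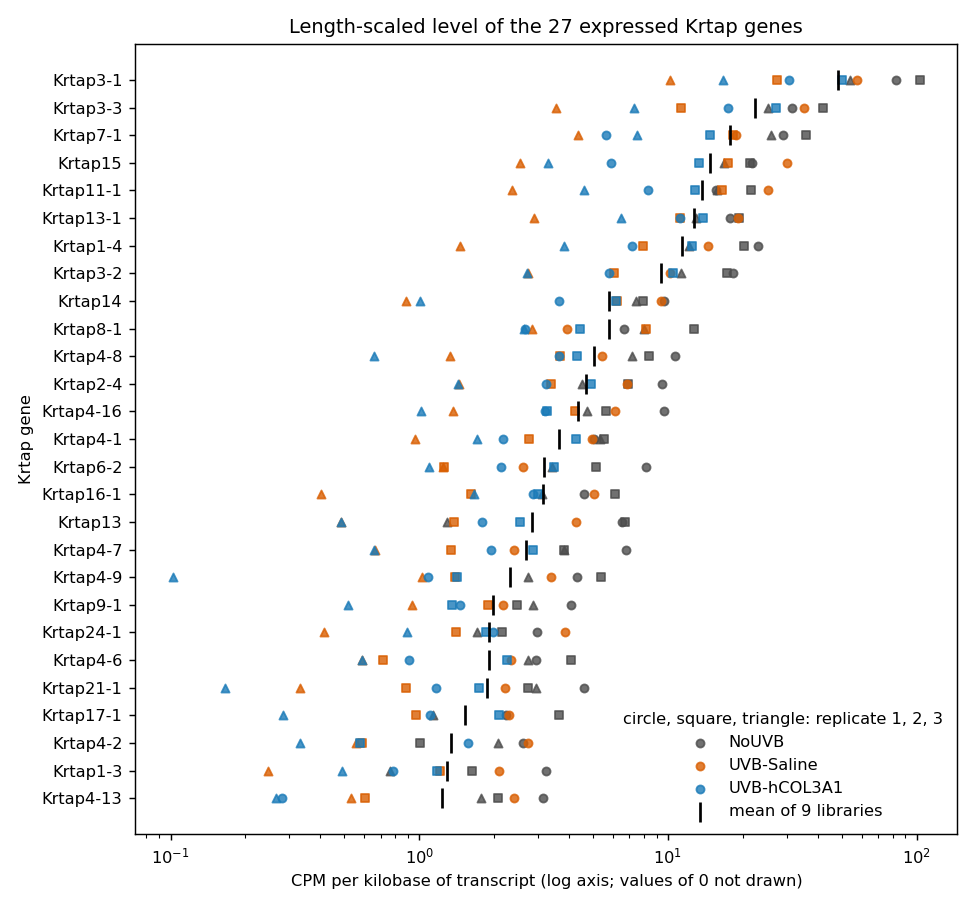
Level of each of the 27 expressed Krtap genes in CPM per kilobase of transcript (horizontal log axis), with 1 point per library, colour for group, shape for replicate and a bar for the mean of the 9 libraries. Krtap3-1 has the highest mean (48.1) and Krtap4-13 the lowest (1.23), and the triangles of UVB-Saline 3 and UVB-hCOL3A1 3 lie at the left of most rows.

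The spread among libraries was wide and shared between the genes. Between the highest and the lowest library the level of an expressed gene differed 4.85-fold to 52.9-fold (median 10.1-fold) in the 25 genes without a 0, and the summed level 7.62-fold. The SD of log2(CPM + 1) over the 9 libraries ranged from 0.51 to 1.11 with a median of 0.74. On that scale, where the added 1 compresses genes of low level, the smallest values belonged to Krtap1-3 and Krtap9-1 and the largest to Krtap3-3 and Krtap15. The folds gave another order, with Krtap8-1 (4.85-fold) and Krtap4-1 (5.77-fold) at the low end and Krtap4-9 (52.9-fold) and Krtap21-1 (27.6-fold) at the high end. Both high folds divide by the level in UVB-hCOL3A1 3, which rests on 1.06 estimated counts for Krtap4-9 and 1.0 for Krtap21-1. The upper end of the folds is therefore imprecise. UVB-Saline 3 was the lowest library for 13 of the 27 expressed genes, UVB-hCOL3A1 3 for another 13 and UVB-hCOL3A1 2 for Krtap4-13. For 23 genes these 2 replicate 3 libraries were both the lowest. NoUVB 1 was the highest library for 12 genes, NoUVB 2 for 11 and UVB-Saline 1 for 4.

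The expressed genes ranked the libraries alike. Pearson's r of a gene's log2(CPM + 1) with the mean of the other 26 was between 0.686 (Krtap8-1) and 0.982, with a median of 0.918, over the 9 libraries. Without UVB-Saline 3 and UVB-hCOL3A1 3 the range was 0.463 to 0.973 and the median 0.833 over 7 libraries. These are descriptions over points that share libraries, depth and scaling.

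**Figure D3:**
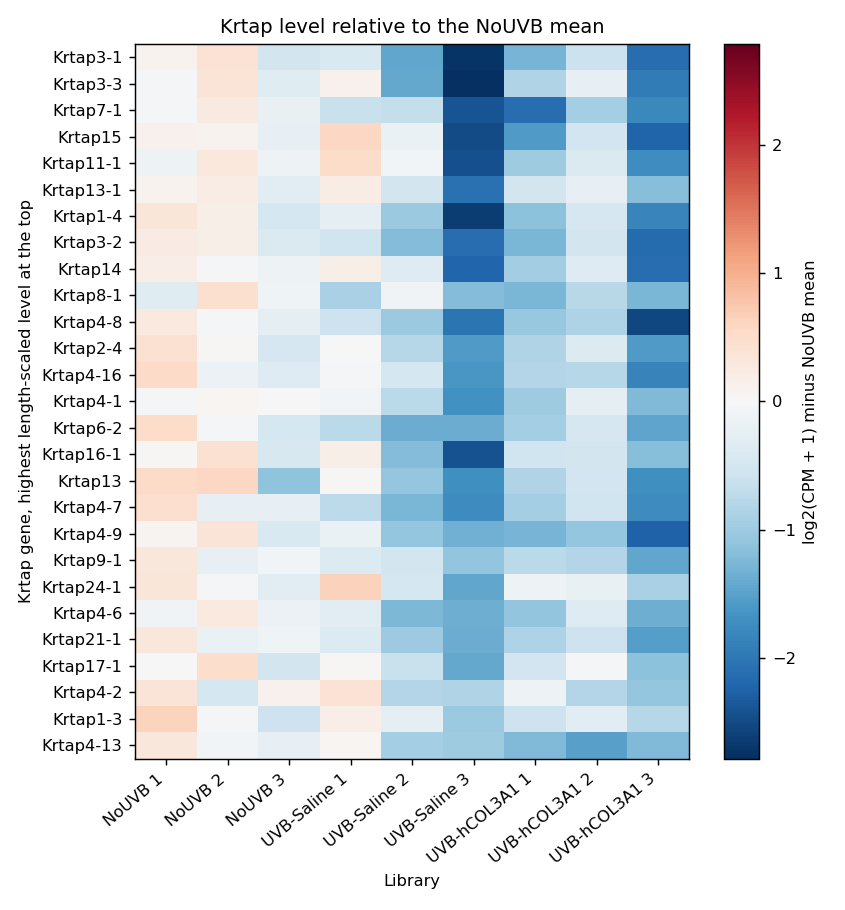
Level of the 27 expressed Krtap genes (rows) in the 9 libraries (columns), as log2(CPM + 1) minus the gene's NoUVB mean, from blue (lower) to red (higher). The columns of UVB-Saline 3 and UVB-hCOL3A1 3 are the darkest blue in nearly every row, and UVB-Saline 1 is close to the NoUVB columns.

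Of the 58 genes, 30 passed edgeR's filter on low counts and were tested with 17168 genes in all. They include Krtap27-1, Krtap6-5 and Krtap9-3, which missed the measure of expression above. A gene can pass that filter through 1 group where it is high, so counts over the tested genes describe those genes only. The comparisons share groups and are not independent of each other.

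The comparison of UVB-Saline with NoUVB sets irradiated, saline-labelled skin against skin that was not irradiated. No Krtap gene passed at an adjusted p of 0.05 (0 of 30; 0.0175% of all genes passed). The fitted log2 difference was negative for 28 of the 30, with a median of -0.93, or 1.90-fold lower, beside a median of 0.01 over all genes tested. At an unadjusted p of 0.05, 6 were lower (20%, against 4.6% of all genes) and 0 higher (4.93% of all genes). The lower ones were Krtap21-1, Krtap3-2, Krtap4-6, Krtap4-7, Krtap4-8 and Krtap6-2. For 9 genes (30%) every UVB-Saline library was below every NoUVB library, against 6.61% of all genes, and for 0 every one was above (7.18% of all genes). The smallest p values belonged to Krtap6-2 (log2 difference -1.68 ± 0.47, edgeR adjusted p = 0.344), Krtap4-7 (-1.68 ± 0.52, 0.373) and Krtap4-6 (-1.43 ± 0.56, 0.467). Positive differences were seen for Krtap6-5 (0.31 ± 0.77) and Krtap9-3 (0.23 ± 0.67). By class the medians were -0.70 for 14 high-cysteine, -0.97 for 11 ultrahigh-cysteine and -1.12 for 5 glycine-tyrosine genes.

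This comparison depended on UVB-Saline 3, the lowest library, and on UVB-Saline 1, the highest of its group. The median was -0.53 without UVB-Saline 3 and -1.58 without UVB-Saline 1. The count lower at an unadjusted p of 0.05 was 2 of 31 without UVB-Saline 3 (6.45%, against 4.47% of all genes) and 18 of 30 without UVB-Saline 1 (60%, against 5.73%). It was 4 of 31 when NoUVB 1, NoUVB 2, UVB-Saline 2 or UVB-hCOL3A1 1 was left out. Over all genes the shares were then 4.08%, 2.84%, 4.62% and 4.4%, in that order, each below the Krtap share. With both UVB-Saline 3 and UVB-hCOL3A1 3 left out, 24 of 31 tested genes were negative, the median was -0.53, 5 were lower at an unadjusted p of 0.05 (16.1%, against 4.51% of all genes) and 0 passed after adjustment. The log2 differences were then -0.92 for Krtap3-1, -0.94 for Krtap4-8 and -0.72 for Krtap7-1, while Krtap11-1 and Krtap15 were at 0.23 and 0.24. Krtap6-2, Krtap4-7 and Krtap4-6 were at -1.52, -1.36 and -1.14. Without a filter, 36 of the 47 genes with any count were negative and the median was -0.87.

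The comparison of UVB-hCOL3A1 with NoUVB sets irradiated, hCOL3A1-labelled skin against skin that was not irradiated. Again 0 of 30 genes passed at an adjusted p of 0.05 (0.0408% of all genes passed). All 30 tested differences were negative, with a median of -1.29, or 2.45-fold lower, beside -0.01 over all genes. At an unadjusted p of 0.05, 12 were lower (40%, against 5.52% of all genes) and 0 higher (6.29% of all genes). For 19 (63.3%) every UVB-hCOL3A1 library was below every NoUVB library, against 10.7% of all genes, and for 0 every one was above, also against 10.7%. Those 12 comprised 7 of 11 ultrahigh-cysteine, 4 of 5 glycine-tyrosine and 1 of 14 high-cysteine genes tested, and the class medians were -1.37, -1.51 and -1.15. The smallest p values belonged to Krtap4-13 (-3.53 ± 0.79, edgeR adjusted p = 0.151), whose reads are shared as described, Krtap8-1 (-1.51 ± 0.41, 0.205) and Krtap9-1 (-1.44 ± 0.41, 0.222). Krtap9-1 also shares windows with other genes, as given above, and Krtap8-1 shares none. Krtap4-9 followed Krtap4-13 in size at -2.19 ± 0.63 (adjusted p = 0.229).

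With UVB-Saline 3 and UVB-hCOL3A1 3 left out, 30 of 31 tested genes were negative, the median was -0.95, 13 were lower at an unadjusted p of 0.05 (41.9%, against 5.14% of all genes) and 0 passed after adjustment. Krtap3-1 was then at -0.98, Krtap4-8 at -1.11, Krtap7-1 at -1.58, Krtap11-1 at -0.73 and Krtap15 at -1.05 on the log2 scale. Krtap4-13, Krtap4-9, Krtap8-1 and Krtap9-1 were at -3.76, -1.72, -1.39 and -1.11. Single libraries moved the 12 genes lower at an unadjusted p to 5 of 31 without NoUVB 1 (16.1%, against 3.48% of all genes), 6 of 31 without UVB-hCOL3A1 3 (19.4%, against 3.86%) and 8 of 31 without UVB-hCOL3A1 1 (25.8%, against 4.29%). Without UVB-Saline 3 the count was 19 of 31 (61.3%, against 6.4%). Without a filter, 42 of 47 genes were negative and the median was -1.17. Some other analyses called up to 6 Krtap genes lower in this comparison, among them Krtap4-13, Krtap7-1 and Krtap8-1, so the absence of calls depends on the fit. The fit with 6 Krtap calls, scaled by library size alone, called 159 of all genes (0.926%), against 7 in the fit above.

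UVB-hCOL3A1 and UVB-Saline differ in the labelled treatment of irradiated skin. Here 0 of 30 Krtap genes passed at an adjusted p of 0.05, as did 0% of all genes. The difference was negative for 22, with a median of -0.29 beside -0.02 over all genes. At an unadjusted p of 0.05, 1 gene was lower (3.33%, against 5.32% of all genes) and 0 higher (5.97% of all genes), and for 1 gene (3.33%) the groups did not overlap with UVB-hCOL3A1 lower, against 8.33% of all genes, and for 0 with it higher (8.95% of all genes). The lower gene in both counts was Krtap4-13 (-2.56 ± 0.84, edgeR adjusted p = 0.332), and both shares, from all 9 libraries, are below the background. Next by p were Krtap6-5 (-1.61 ± 0.86, adjusted p = 0.514) and Krtap4-9 (-1.10 ± 0.66, 0.575). Krtap6-5 stood at 2.87, 0.987 and 0.108 CPM in UVB-Saline and 0.381, 0.470 and 0.432 in UVB-hCOL3A1, all within the saline range. The sign of the median turned with single libraries, to 0.44 without UVB-Saline 1 and 0.08 without UVB-hCOL3A1 3, and was -0.67 without UVB-Saline 3. Without that library 29 of 31 genes were negative, and 7 were lower at an unadjusted p of 0.05 (22.6%, against 5.37% of all genes). With UVB-Saline 3 and UVB-hCOL3A1 3 both left out, 26 of 31 were negative, the median was -0.33, 4 were lower at an unadjusted p (4.18% of all genes) and 0 passed after adjustment, as did 0.148% of all genes. Krtap4-13, Krtap6-5 and Krtap4-9 were then at -3.11, -2.11 and -0.89 on the log2 scale. With all libraries, standard errors of single genes ran from 0.43 to 0.92 on the log2 scale.

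**Figure D4:**
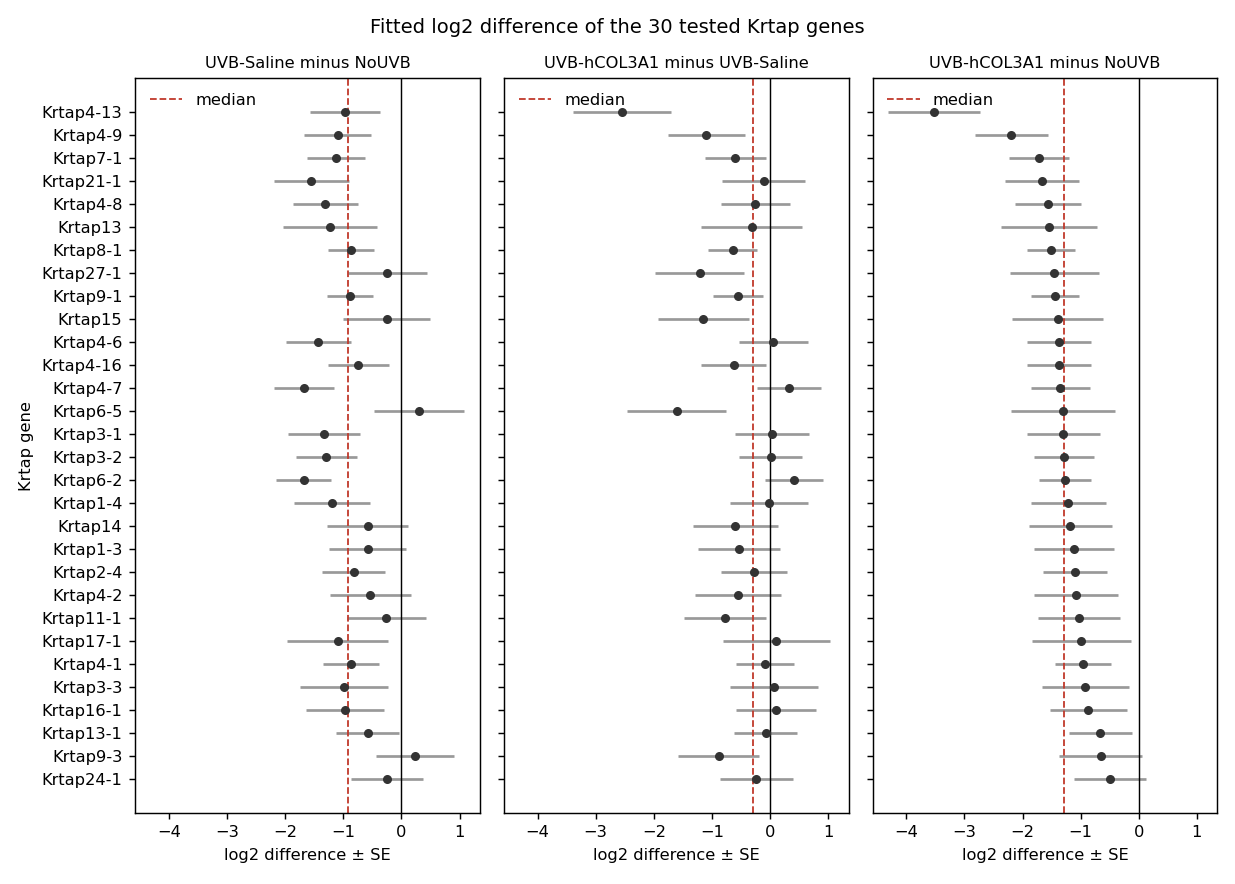
Fitted log2 difference (horizontal axis, points) with its standard error (lines) for the 30 tested Krtap genes in the 3 comparisons, with the median as a dashed line. Medians lie at -0.93 for UVB-Saline minus NoUVB, -0.29 for UVB-hCOL3A1 minus UVB-Saline and -1.29 for UVB-hCOL3A1 minus NoUVB.

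Other genes of the hair shaft were followed from fixed lists. Hair shaft keratins, the filament proteins that Krtap proteins embed, were negative in 14 of 14 tested genes in UVB-Saline against NoUVB (median -0.63), 14 of 14 in UVB-hCOL3A1 against NoUVB (-1.04) and 13 of 14 in UVB-hCOL3A1 against UVB-Saline (-0.40), with 0 passing in each. Without UVB-Saline 3 and UVB-hCOL3A1 3 these medians were -0.25, -0.65 and -0.48, with 12, 14 and 13 of 14 genes negative. Summed Krtap CPM was 72.2 per 100 CPM of hair shaft keratin in UVB-Saline 3 and up to 118 in NoUVB 2, so the ratio of matrix to filament genes differed up to 1.63-fold between libraries whose Krtap level differed 7.62-fold. The inner root sheath and companion layer list, which marks the sheath around the growing shaft, was negative in 13 of 14 tested genes in UVB-Saline and 14 of 14 in UVB-hCOL3A1 against NoUVB (medians -0.52 and -0.69, or -0.14 and -0.46 without those libraries). Krt31, a cortex keratin, stood at 4.55 CPM in UVB-Saline 3 and 6.15 in UVB-hCOL3A1 3, with 20.8 to 44.0 in the other 7 libraries. The list of other hair shaft proteins shifted less. Against NoUVB, 11 of 13 tested genes were negative in UVB-Saline and 10 of 13 in UVB-hCOL3A1 (medians -0.29 and -0.55). Without UVB-Saline 3 and UVB-hCOL3A1 3, 6 and 9 of 13 were negative (medians 0.005 and -0.24). Its 2 most abundant genes differed. In those libraries Lgals7 was highest (273 and 243 CPM) and Prr9 lowest (22.3 and 32.5 CPM).

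The gene whose profile over the 9 libraries was most like the mean of the expressed Krtap genes was Krt34, a hair cortex keratin, with r = 0.994 among 11025 genes of at least 5 CPM (0.980 over 7 libraries). Next were Pdzd2 (0.987), Nhsl1 (0.985), Gprc5d, an orphan receptor known from the hair cortex (0.9845), and Gja1, the gap junction protein connexin 43 (0.983). Foxn1, the gene mutated in these mice, ranked 8 with r = 0.975. It stood at 21.2, 21.3 and 14.04 CPM in NoUVB, 22.4, 13.5 and 6.29 in UVB-Saline and 11.3, 13.5 and 7.12 in UVB-hCOL3A1. The other named regulators had r = 0.933 (Msx2), 0.932 (Dlx3), 0.907 (Lef1) and 0.892 (Hoxc13), and ranked 87, 88, 162 and 212. For Foxn1 and these others, r was not taken without UVB-Saline 3 and UVB-hCOL3A1 3. None of these 5 regulators passed in any comparison. These r values again describe points that share libraries, and no p is attached.

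Markers of other cells were followed in the same libraries. The stress keratins Krt6a, Krt6b, Krt16 and Krt17, which wounded or hyperproliferative epidermis makes, were all detected, and they summed to 482 to 654 CPM in NoUVB, 489, 620 and 3658 in UVB-Saline and 480, 512 and 939 in UVB-hCOL3A1, highest in the libraries where Krtap was lowest. Krt17 did not share this in UVB-hCOL3A1 3, where it was at 282 CPM, with 284 to 389 in NoUVB. Each r given here is between the mean log2(CPM + 1) of a list's expressed genes and that of the expressed Krtap genes. It does not describe the summed CPM. For the stress keratins r was -0.797 over 9 libraries and -0.188 over the 7 others. All 10 melanocyte markers were detected, and they summed to 141 to 163 CPM in NoUVB, 64.9 to 208 in UVB-Saline and 89.3 to 139 in UVB-hCOL3A1 (r = 0.890, and 0.845 over 7). All 8 interferon response genes were detected and summed to 17.025 to 20.45 CPM in NoUVB, 30.1 to 105 in UVB-Saline and 79.8 to 115 in UVB-hCOL3A1 (r = -0.833, and -0.841 over 7). Interfollicular epidermis, with 8 of 9 markers expressed, summed to 4503 to 6744 CPM in NoUVB, 5927 to 8821 in UVB-Saline and 5187 to 7266 in UVB-hCOL3A1 (r = 0.004). All 8 macrophage markers were expressed and summed to 456 to 464 CPM in NoUVB, 266, 484 and 689 in UVB-Saline and 563, 654 and 835 in UVB-hCOL3A1 (r = -0.729, and -0.542 over 7), with the lowest value in UVB-Saline 1 and the highest values in UVB-Saline 3 and UVB-hCOL3A1 3. All 10 adipocyte markers were expressed and summed to 1130, 1894 and 781 CPM in NoUVB, 593, 841 and 582 in UVB-Saline and 997, 1669 and 1048 in UVB-hCOL3A1 (r = 0.356, and 0.140 over 7). Their median log2 difference was -1.03 in UVB-Saline against NoUVB, 0.04 in UVB-hCOL3A1 against NoUVB and 0.99 in UVB-hCOL3A1 against UVB-Saline. The part of these in the Krtap differences was not tested.

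**Figure D5:**
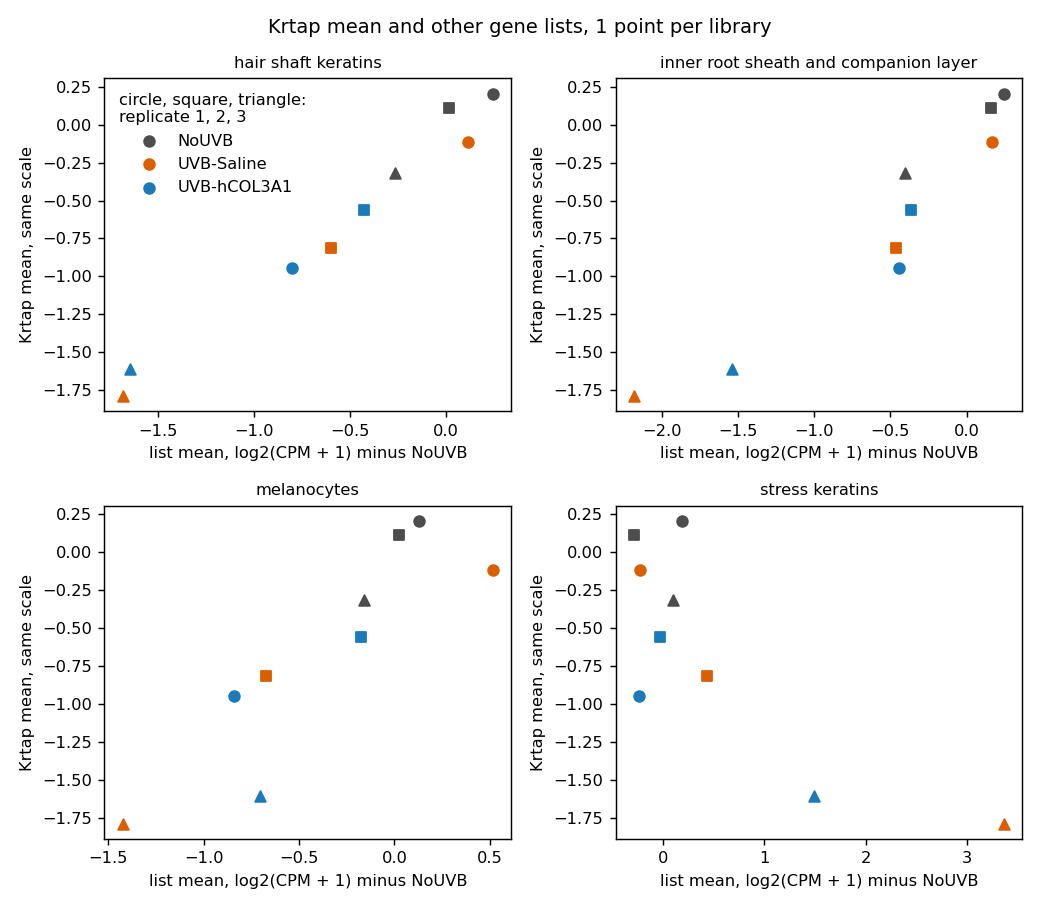
Mean of the expressed Krtap genes (vertical axis) against the mean of 4 gene lists (horizontal axes), both as log2(CPM + 1) minus the NoUVB mean, with 1 point per library, colour for group and shape for replicate. Hair shaft keratins lie closest to a line (r = 0.988), and in the panel of stress keratins UVB-Saline 3 and UVB-hCOL3A1 3 lie far from the other 7 libraries.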

How the data were processed

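Total RNA of 9 skin libraries, 3 in each of 3 groups taken from the titles, was available as the authors' deposited estimated counts of 57180 genes. Tools named in the submitters' processing notes are RSEM 1.3.3, STAR 2.7.11b, Bowtie2 2.5.4, fastp 0.23.4 and DESeq2 1.44.0, with the build GRCm39. How they were combined, which annotation was used and whether strand was counted is not given in the sources used here. A gene and an antisense or overlapping partner therefore cannot be told apart. Estimated counts divide reads among similar genes. Of the 58 Krtap genes, 22 had fractional counts and 42 shared at least 1 window of 50 bases with a transcript of another gene (GENCODE vM21, build GRCm38, also used for transcript lengths). The deposited counts were rounded.

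In edgeR 4.0.16 (R 4.3.3), filterByExpr kept 17168 genes, libraries were scaled by TMM, and all groups entered 1 robust quasi-likelihood fit with a common biological coefficient of variation of 0.193 and 6 residual degrees of freedom. Tests were two-sided, and p-values were adjusted by the Benjamini-Hochberg method over all genes kept, with a threshold of 0.05. An adjusted p is from this test, and a standard error is the absolute log2 difference over the square root of F. The procedure was checked on simulated counts. Totals of 7640172 to 12927411 counts set the precision, and floors cover counting error only. No libraries held identical values.

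The members and gene lists were chosen with earlier results of these data known. Named were, per class, the 3 Krtap genes of highest mean CPM, per comparison the 3 of smallest p since none passed, the 2 widest and 2 narrowest over libraries, and those above 1 CPM in 1 library only. From outside the family the rule named 5 regulators, 2 abundant genes of a list described and the 5 genes most like the Krtap mean. Others (the genes sharing sequence with Krtap4-13 and genes listed under a count) were named after their values were seen. Classes were assigned by family number, with families 10 and 12, in which no gene was expressed, placed in the ultrahigh-cysteine class. Protein sequences were not used here, so the classes were not checked against composition. Alternatives were other scalings, filters, tools (DESeq2 1.42.0, limma voom 3.58.1) and sets of libraries, and a replicate block. The labels do not say whether replicate numbers pair libraries, so the main fit used no pairing.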

Additional observations from a re-analysis of the deposited data

How the results depend on the processing

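Counts of called Krtap genes moved with the fit in the comparison of UVB-hCOL3A1 with NoUVB, from 0 to 6 with scaling by library size alone, 1 without a low-count filter, 2 with DESeq2, 2 with the replicate block, 3 in a fit of only those groups, and 0 to 2 when libraries were left out in turn (1 without UVB-Saline 1 and 2 without UVB-Saline 3). Calls among all genes rose from 7 to 159, 178, 269, 118, 407, 144 and 242 in the same order. All were lower in UVB-hCOL3A1, and Krtap4-13, Krtap7-1 and Krtap8-1 recurred among them. Library size alone moved the median of all genes by -0.12 there. In UVB-Saline against NoUVB, library size alone called 2 (100 of all genes, against 3) and each other analysis 0, the replicate block included, and in UVB-hCOL3A1 against UVB-Saline every analysis called 0. DESeq2 gave an adjusted p to 21, 13 and 23 Krtap genes in UVB-Saline against NoUVB, UVB-hCOL3A1 against UVB-Saline and UVB-hCOL3A1 against NoUVB. The cause of these shifts was not tested, except that a filter changes the genes tested. Leaving out libraries in turn gave medians of -1.58 to -0.53, -0.67 to 0.44 and -1.71 to -0.96 in that order of comparisons. In the other alternatives the medians kept their sign. The number expressed was 14 at 5 CPM and otherwise 27 to 33. Correlations of same-numbered libraries' deviations over all genes ran from 0.018 to 0.410, and those of different numbers from -0.389 to 0.257. The highest was between UVB-Saline 3 and UVB-hCOL3A1 3, while UVB-Saline 1 was more like UVB-hCOL3A1 2 (0.257) than its own number (0.169). Whether the numbers pair libraries is not stated, and the block was kept as an alternative only. With the block 16, 2 and 21 Krtap genes, in that order of comparisons, were lower at an unadjusted p of 0.05, against 6, 1 and 12 without it. The shares with the block were 53.3%, 6.67% and 70% of the tested Krtap genes, against 5.96%, 6.15% and 7.07% of all genes. Calls over all genes were 61, 74 and 118 with the block, against 3, 0 and 7 without it. Alternative limits of protein composition were not run, since protein sequences were not used here. The removal of UVB-Saline 3 and UVB-hCOL3A1 3 together was chosen after seeing the data.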
